A study of Mus musculus with 4 samples.

Results

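DNA methylation in 3T3-L1 cells with slincRAD knocked down was compared with that in control cells at day +2 of adipogenic induction, on 1 array for each, which are 2 of the 4 arrays of the series. 3T3-L1 is a mouse embryo fibroblast line that behaves as a preadipocyte and turns into fat cells on induction. The control was the wild type line, and the other line stably carried shRNA8, a short hairpin RNA directed against slincRAD. Both lines had been passaged several times and were harvested after induction with insulin (167 nM), dexamethasone (1 µM) and the phosphodiesterase inhibitor 3-isobutyl-1-methylxanthine (0.5 mM). The labels describe no control hairpin and do not say whether the shRNA8 line is a single clone, so transfection and selection cannot be told apart from the knockdown. On the slide shRNA8 cells held position 2 and control cells position 4, and slide position and line cannot be told apart either. The other arrays of the series hold the same lines at day -2, before induction, in positions 1 and 3, and their values are given beside the day +2 differences.

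Methylated DNA was captured with an antibody against 5-methylcytosine (the IP), labelled with Cy5, and hybridized together with Cy3-labelled input DNA, the same genomic DNA before capture. A region rich in methylated cytosine is bright in the IP relative to the input, and the log2 ratio of the channels is the usual readout of this assay, MeDIP-chip. In mammals the methyltransferase DNMT1 copies methylation marks to the new strand after replication, and the long non-coding RNA slincRAD has been linked to DNMT1 in early adipogenesis. Preadipocytes re-enter the cell cycle after induction and then switch on the fat cell programme. The comparison therefore addresses which regions carry a different methylation signal when slincRAD is reduced at that stage. The arrays measure no RNA, so neither the level of slincRAD nor fat cell markers could be checked.

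Of 174638 genomic probes, 109842 (62.9%) were above background in the input of both arrays, and 104368 of these formed 19572 regions of at least 3 probes no more than 1000 bp apart. The typical region held 5 probes over 1428 bp (medians). Coordinates are those of mm9. All differences are shRNA8 minus control on the log2 scale after each array or channel was centred on its median. The centring removes any difference in overall methylation between the lines. With 1 array per group there is no spread between replicates and no test was possible. An SD beside a region is taken over that region's probes, and one beside a window over its regions. To be called, a region needed an average difference of at least 0.6 in size over its probes, which is 1.52-fold, with at least 75% of them on that side of 0.

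The IP signal at day +2 was nearly the same in knockdown and control cells, and nearly all of the difference in the ratio lay in the input. By the ratio 386 regions (1.97%) were higher and 371 (1.90%) lower in shRNA8 cells, together 757 (3.87%). By the IP alone, treated in the same way, 0 regions were higher and 0 lower. By the input alone 280 regions (1.43%) were higher and 469 (2.40%) lower, together 749 (3.83%). Quantile normalization turned this input split to 378 higher and 309 lower. The IP difference was within 0.2 in 19448 regions (99.4%), and the input difference in 10244 (52.3%). Over probes, the SD of the difference was 0.124 in the IP and 0.624 in the input, and the input held 96.2% of the summed variance of the channels. Over the 19572 regions the ratio difference followed the input difference with r = -0.98 and the IP difference with r = 0.14. These r values describe regions of a single pair of arrays, and the ratio contains both channels.

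**Figure D1:**
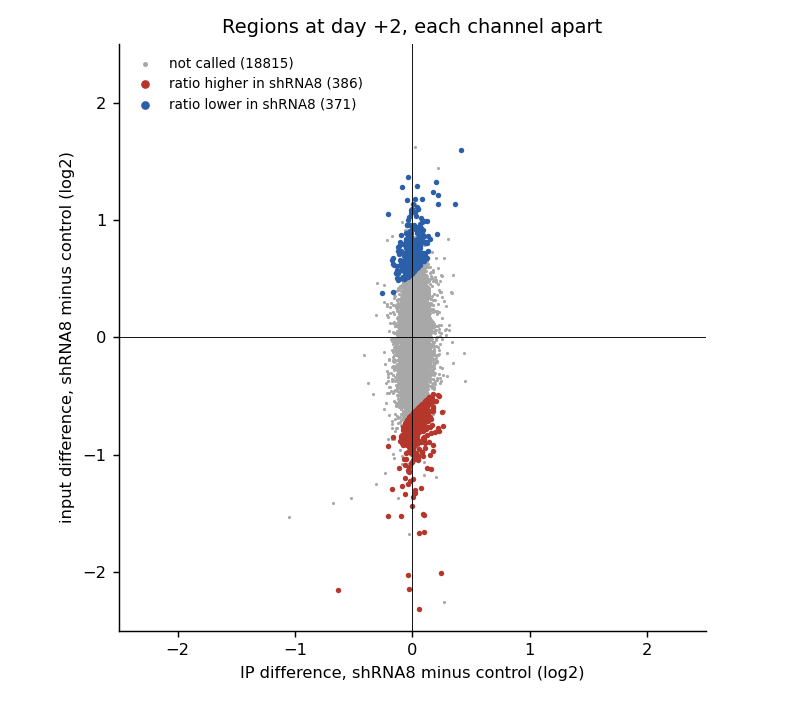
Each point is a region at day +2, with the IP difference (log2, shRNA8 minus control) on the x axis and the input difference on the y axis, drawn to the same scale. Called regions lie toward the ends of the input axis: the 386 with a higher ratio at the bottom and the 371 with a lower ratio at the top. Uncalled regions share that range. The input was lower by at least 0.6 in 568 regions, 340 of them called higher, and higher by at least 0.6 in 384, 280 of them called lower. An IP difference within 0.2 was found in 99.4% of all regions.

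The channels also differed in brightness. Among the kept probes the median signal above background in the input was 15.7 units in control cells and 22.2 in shRNA8 cells (1.41-fold), over a local background of 22 and 24 units. In the IP it was 119.7 and 136.3 units (1.14-fold), over a background of 10 in both. The input of the typical probe was thus about as bright as its background, and the IP stood well above it. Control probes printed many times on each array gave the only repeated measurement. For 16 such probes the SD between spots of an array was 0.037 to 0.44 in the IP, with a median of 0.065. In the input it was 0.13 to 0.85, with a median of 0.45. Their mean differed between the arrays by -0.085 to 0.26 in the IP and by -0.63 to 0.71 in the input, so that a control probe could differ in the input by more than the 0.6 used to call a region.

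Calls were most frequent where the input was dim. In the dimmest of 10 classes of input brightness 87 regions were higher and 86 lower of 1958, against 22 higher and 4 lower of 1958 in the brightest class. The SD of the input difference over regions fell from 0.38 to 0.24 along these classes, and that of the IP difference from 0.072 to 0.049. With probes kept only where the input was well above background in both arrays, 10640 regions were left, of which 28 (0.263%) were higher and 64 (0.602%) lower. With no background subtraction 5 of the 19572 were higher and 12 lower. Leaving the background in makes the log2 differences of dim probes smaller by construction, so fewer calls at 0.6 follow from that setting. The part of input brightness in single calls was not tested.

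**Figure D2:**
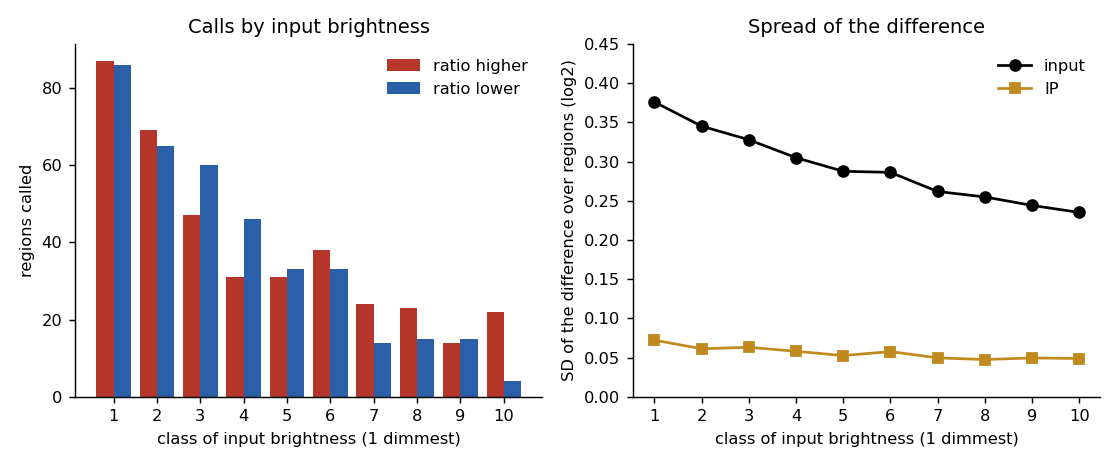
The left panel gives the number of regions called higher and lower in each of 10 classes of input brightness, and the right panel the SD over regions of the day +2 difference in each channel (log2). Calls fall from 87 and 86 in the dimmest class to 22 and 4 in the brightest, and the IP stays below 0.1 in every class.

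Regions with a lower ratio were those with more input in shRNA8 cells. Of the 371, the input was higher by at least 0.6 in 280, and the median IP difference was -0.0049. Their median input signal above background was 7.73 units in control and 18.6 in shRNA8 cells. Of the 386 regions with a higher ratio, the input was lower by at least 0.6 in 340, the median IP difference was 0.028, and the input was 13.03 units in control and 11.3 in shRNA8 cells. The day -2 pair shares no array with the day +2 pair. Its differences were taken over the probes kept at day +2, whose input need not be above background at day -2. Of the regions lower at day +2, 41 (11.1%) were also lower at day -2, where 1.62% of all regions were, and 10 were higher. Of those higher at day +2, 25 (6.48%) were also higher at day -2, where 2.03% of all regions were, and 5 were lower. Most called regions were thus not called in the other pair.

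Most lower regions were scattered over the genome, and a few windows held several. Of 829 windows of 2 Mb with at least 8 regions, 226 held at least 1 lower region and 272 at least 1 higher one, and 61 held at least 2 lower regions and 61 at least 2 higher. At the upper end 7 windows held 6 or more lower regions, and no window held more than 4 higher ones. The 6 windows with the lowest mean ratio, which were chosen by these ratios, held 31 lower regions, 8.36% of all lower regions. Window means of the IP difference ran from -0.058 to 0.092 and those of the input from -0.41 to 0.82. Chromosome 17 held 3 of the 6 windows with the highest mean, at 64 to 66, 74 to 76 and 78 to 80 Mb, with means of 0.24 ± 0.38 (SD over 10 regions), 0.26 ± 0.40 (17 regions) and 0.33 ± 0.20 (15 regions). In the last of these all 15 regions were above 0 though 0 were called. At day -2 its mean was -0.071, on the other side of 0. The other high windows lay on chromosome 2 at 80 to 82 Mb (0.37 ± 0.17), chromosome 13 at 2 to 4 Mb (0.30 ± 0.24) and chromosome X at 108 to 110 Mb (0.24 ± 0.29).

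The files pair probes with positions and not with genes, and no mm9 gene table was used here. Promoters of cell cycle inhibitors such as Cdkn1a and of adipogenic factors such as Pparg were therefore not assigned to regions and are not analysed here. Gene clusters below are placed on windows from general knowledge of the mouse map, and a window can hold other genes.

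The window of the major urinary protein (Mup) genes, chromosome 4 at 60 to 62 Mb, had the second lowest mean. Mup genes encode small lipocalins that bind pheromones and are made mainly in liver, and the cluster consists of many near-identical copies. Of its 22 regions 9 were lower and 21 were below 0. The mean ratio difference was -0.53 ± 0.31, the input difference 0.48 and the IP difference 0.0016. The similarity of the copies is seen in their promoters, of which 4 are printed from RefSeq (GRCm38.p6), 5′ to 3′ on the gene's strand with the TATA motif in capitals:
Mup2: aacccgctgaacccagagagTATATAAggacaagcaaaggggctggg
Mup9: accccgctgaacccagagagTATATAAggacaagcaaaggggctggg
Mup10: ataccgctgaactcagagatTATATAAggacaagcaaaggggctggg
Mup4: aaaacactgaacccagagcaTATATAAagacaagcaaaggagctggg
Over these 47 bases Mup9 has 46 bases identical to Mup2, Mup10 has 43 and Mup4 has 40. The motif TATATAA was found in 13 of the 14 Mup promoters in the table, and on either strand in 3.24% of all 32851 promoters of 300 bases. The array's probes were not matched to these sequences.

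The Mup difference had ends. From chr4:60015121-60016916 to chr4:61714652-61715954, 18 regions a median of 80.0 kb apart all had a ratio difference between -0.95 and -0.36 and an input difference between 0.34 and 0.93. Their IP difference ran from -0.16 to 0.071. On average 79.1% of a region's probes were above background in the IP of control cells, and 79.0% in that of shRNA8 cells. The run begins at the first region of the window and ends at its last lower region, a choice made after the values were seen. The 4 regions that follow in the window, 0 of them lower by that choice of end, had ratio differences of -0.24 to 0.25. In the preceding window, 0 of 16 regions were lower and the mean was -0.0032. The median input of the 18 regions was 9.46 units in control and 20.1 in shRNA8 cells at day +2, 2.13-fold, where all kept probes gave 1.41-fold. At day -2 it was 8.61 and 13.2 units. The median IP was 23.2 and 27.3 units at day +2 and 25.3 and 29.4 at day -2. The IP gap of 1.18-fold at day +2 was close to the 1.14-fold of all kept probes, and after centring the mean IP difference of the run was -0.0024 at day +2 and -0.031 at day -2. The input difference was above 0 at day -2 in 14 of the 18 regions, and the mean ratio difference there was -0.26.

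Within the Mup run the difference depended on the probe. Probes lay at nearly the same distances from the first probe in many of these regions. At the first probe the input difference was 0.83 ± 0.33 (SD over 18 regions), above 0 in all 18. About 201 bp further it was 0.97 ± 0.64, above 0 in 17 of 18. About 415 bp from the first it was -0.16 ± 0.18 over the 14 regions with such a probe, below 0 in 12. The probes at 415 bp were far brighter, with a median input of 569.7 units in control and 717.7 in shRNA8 cells, against 16 and 42.3 at the first probe and 6.32 and 19.6 at 201 bp. In units these bright probes also had more input in shRNA8 cells, but by less than the 1.41-fold of all kept probes, so that their mean difference lay below 0 after centring. The region means therefore combine probes above 0 with probes slightly below it.

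**Figure D3:**
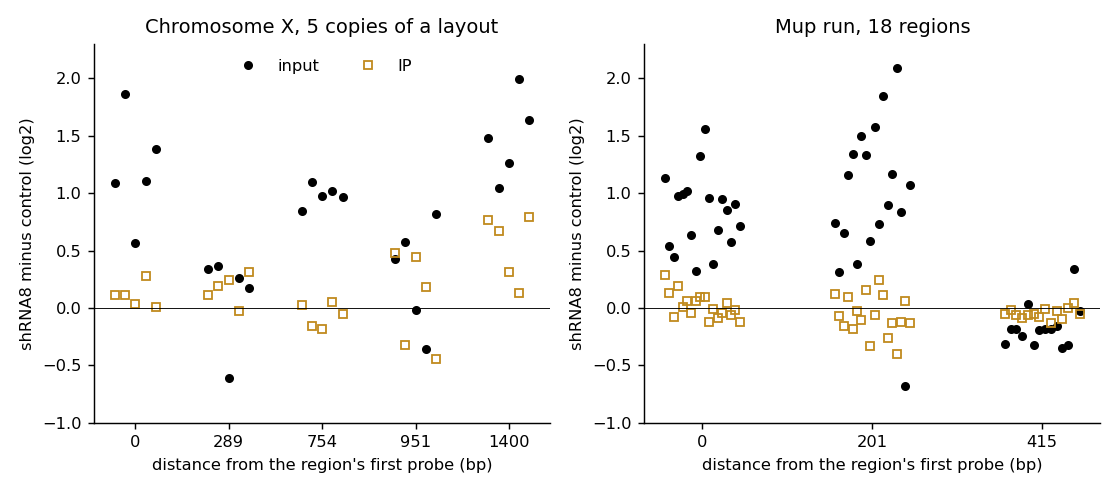
Input and IP differences at day +2 (log2, shRNA8 minus control) of single probes, by their distance in bp from the first probe of the region, for 5 regions of chromosome X with 1 probe layout (left) and for the 18 regions of the Mup run (right, with distances of about 201 and 415 bp pooled). Points are spread sideways in chromosome order; the input points at 0 and 201 bp in the Mup run lie above the IP points in most regions, and those at 415 bp near or below 0.

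A run of the same kind covered part of the KRAB zinc finger genes of chromosome 4, at 144 to 148 Mb. KRAB zinc finger proteins bind DNA and silence transposable elements, and their genes also arose by repeated duplication. Over both windows 14 of 49 regions were lower and 1 higher. From chr4:145205822-145207392 to chr4:147183474-147185118, 13 of 20 regions were lower, and all 20 had a ratio below 0 and an input above 0. The ends were again set after the values were seen. The mean ratio difference was -0.70 ± 0.30 and the mean input difference 0.70 ± 0.30, and the IP ran from -0.044 to 0.22. The 0.22 was at chr4:146926098-146927491, with an IP of 4.34 units in control and 7.10 in shRNA8 cells. On average 78.5% of a region's probes were above background in the IP of control cells, and 81.1% in that of shRNA8 cells. The next region begins 10.8 kb after the last of the run. In the 20 regions after the run 0 were lower, which follows from ending the run at the last lower region. The mean of these 20 was 0.038, and 1 was higher. In the 9 regions before the run 1 was lower, with a mean of -0.060. The median input of the run was 17.3 units in control and 48.4 in shRNA8 cells at day +2 (2.80-fold), and 13.4 and 25.5 at day -2 (1.90-fold). The IP was 44.9 and 52.5 units at day +2. At day -2 the input difference was above 0 in 19 of the 20 regions and the mean ratio difference was -0.51. The KRAB zinc finger genes of chromosome 2, at 174 to 178 Mb, gave 0 lower regions and 1 higher of 53, with a mean of -0.051.

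**Figure D4:**
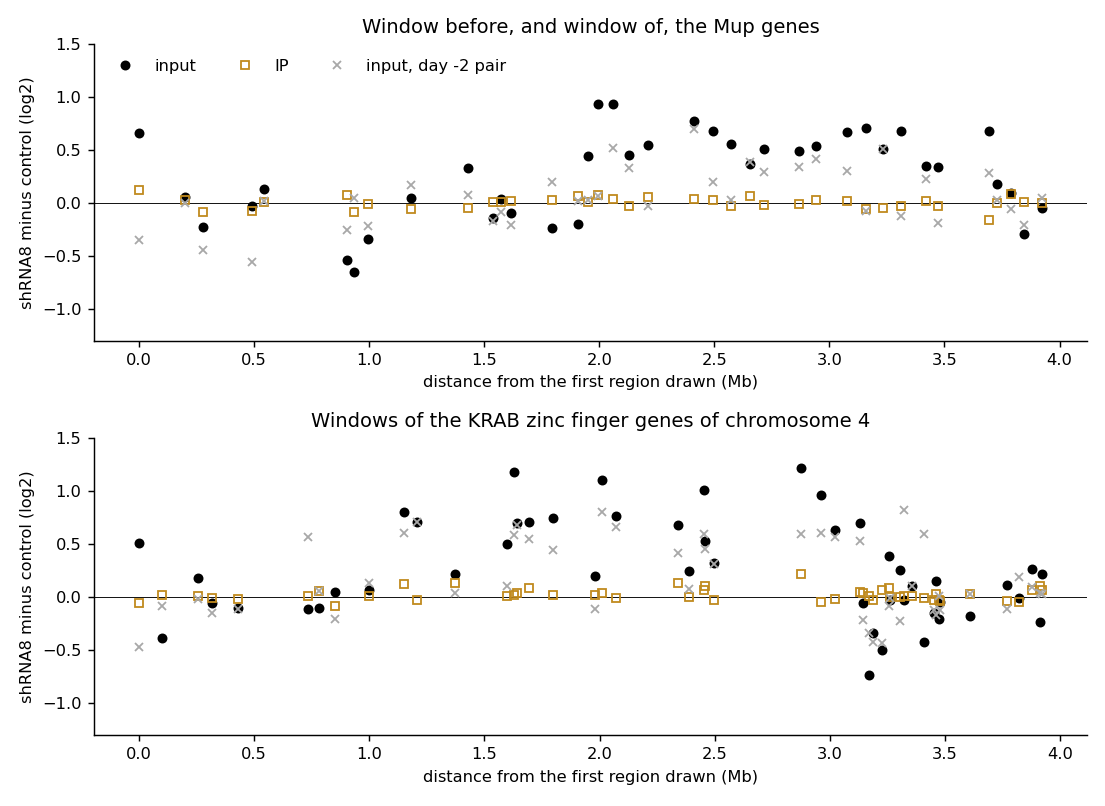
Input (filled) and IP (open) differences at day +2 and input differences at day -2 (crosses), log2, by region along chromosome 4, with distance in Mb from the first region drawn. In the Mup window (top, from about 2 Mb) and in the middle of the KRAB zinc finger windows (bottom) the day +2 input lies above 0 in 18 of 18 and 20 of 20 regions of the runs, and the IP lies between -0.16 and 0.22 in these windows.

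The lowest mean of all was on chromosome X at 144 to 146 Mb, where 6 of 9 regions were lower and all 9 were below 0. The mean ratio difference was -0.78 ± 0.22, the input difference 0.82 ± 0.18 and the IP difference 0.092 ± 0.11. Here 5 of the 9 regions had the same probe layout, 5 probes over 1456 bp at identical distances. Such a layout, shared by at least 3 regions of a window, was found in 3 windows in all, and in the other two 0 regions were called. In these 5 copies the input difference was 0.98 ± 0.092 (SD over copies) at the probe 754 bp from the first, whose median input was 33.1 units in control and 90.1 in shRNA8 cells. At the first probe it was 1.20 ± 0.47 and at the last, 1400 bp further, 1.48 ± 0.36, above 0 in all 5 copies at both. At the probes 289 and 951 bp from the first it was 0.11 ± 0.41 and 0.29 ± 0.47. The IP difference at 1400 bp was 0.53 ± 0.30 at day +2 and -0.61 at day -2, on a median IP of 5.28 units in control and 7.59 in shRNA8 cells at day +2. Copies agreed most closely at their brightest probe. The median input of the 9 regions was 12.2 units in control and 31.8 in shRNA8 cells at day +2, and 12.4 and 23.5 at day -2, with a mean ratio difference of -0.63 at day -2. The next region, chrX:146217981-146219419, had a ratio difference of -1.11, with an input of 25.1 units in control and 87.9 in shRNA8 cells. No gene is assigned to this window here.

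The other low windows had smaller or less even differences. On chromosome 7 at 32 to 34 Mb 4 of 10 regions were lower (-0.44 ± 0.31), on chromosome X at 2 to 4 Mb 2 of 8 (-0.39 ± 0.21) and on chromosome 4 at 72 to 74 Mb 3 of 16 (-0.35 ± 0.38). In the chromosome X window the median IP was 2.95 units in control and 3.995 in shRNA8 cells, and 64.3% of its probes were above background in the IP of control cells. At day -2 the means of these windows were -0.13, -0.031 and -0.082. With the brighter 50% of the probes the chromosome 7 window turned to 0.16. With the input well above background it kept 4 of its 10 regions, with a mean of -0.015. On chromosome 10 at 116 to 118 Mb 6 of 21 regions were lower, 5 of them among 8 consecutive regions from chr10:116718836-116720407 to chr10:117283023-117284293. The median input of those 8 was 31.6 units in control and 86.1 in shRNA8 cells, and 23.5 and 62.4 at day -2. They were not uniform: chr10:117229285-117229933, inside the run, had an input of 66.5 units in control and 59.7 in shRNA8 cells and a ratio difference of 0.49. On chromosome 11 at 58 to 60 Mb 7 of 69 regions were lower with a mean of -0.039.

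Other clusters of repeated or developmental genes gave these counts. The window of the alpha-defensins, antimicrobial peptides of the gut, on chromosome 8 at 22 to 24 Mb had 8 of 52 regions lower and 0 higher, with a mean of -0.29 ± 0.30. Its 29 regions from the first to the last lower one, a stretch set by the calls, had a mean of -0.46, and -0.18 at day -2. The 19 regions after them had a mean of -0.074, and 0 of them were lower by that choice of end. The Speer genes (chromosome 5, 14 to 28 Mb), a rodent family expressed in testis, had 0 of 26 regions called, with 23 below 0 and a mean of -0.20. Vomeronasal receptor genes on chromosome 7 (6 to 10 Mb) had 1 of 46 regions lower and 34 below 0. The takusan genes on chromosome 14 had 1 of 16 lower. Olfactory receptor genes on chromosome 2 (86 to 90 Mb) had 7 regions higher and 3 lower of 95, with a mean of 0.11. Their median input was dim, 6.16 units in control and 7.52 in shRNA8 cells. In the dimmest input class 87 of 1958 regions were higher. Those on chromosome 9 had 3 higher and 4 lower of 54. The 4 Hox clusters, which pattern the body axis, held 2 higher and 1 lower region over their windows: 1 of 24 higher at Hoxa, 1 of 53 higher at Hoxb, 1 of 45 lower at Hoxc and 0 of 22 at Hoxd. Of 68 regions in the main histone window on chromosome 13 1 was higher and 4 were lower. The protocadherin window had 2 higher and 0 lower of 66, the epidermal differentiation window 1 and 3 of 47, and the keratin window on chromosome 11 1 and 1 of 81. Apart from the alpha-defensin window and the olfactory receptor window of chromosome 2, each of these clusters had at most 4 called regions on a side. Such counts are small. No cluster's share was tested against the 1.97% higher and 1.90% lower of all regions. The same holds for the alpha-defensin window and the chromosome 2 olfactory receptor window.

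Among regions of at least 5 probes, 58 (0.459%) were higher and 57 (0.451%) lower with every probe on that side. The largest increase was at chr11:61080135-61081518, 1.01 ± 0.52 (SD over 5 probes). Its median input was 8.43 units in control and 4.91 in shRNA8 cells, and its IP 16.6 and 20.7. The next were chr7:88638326-88639905 (0.96 ± 0.79), chr8:123606449-123608661 (0.95 ± 0.59) and chr13:21766324-21767635 (0.92 ± 0.69). The first of these had 8.17 units of input in control and 5.53 in shRNA8 cells. In all 8 regions named on this side the input was lower in shRNA8 cells after centring, by 0.86 to 1.07, and the IP difference lay between -0.014 and 0.11. At day -2 the ratio differences of the 8 ran from -0.88 to 0.24, with 5 below 0. With no background subtraction, which shrinks the differences of dim inputs by construction, the 8 increases were 0.080 to 0.28. That of chr11:61080135-61081518 was 0.11.

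The largest decrease among regions of at least 5 probes all on that side was at chr4:73328609-73329827, -1.31 ± 0.96. Its input was 10.2 units in control and 27.6 in shRNA8 cells at day +2, and 13.97 and 18.02 at day -2, and its IP 67.2 and 71.6 at day +2. After centring the IP was lower in shRNA8 cells at all 5 probes, by -0.21 ± 0.17 on average, and the input was higher by 1.05. The ratio difference at day -2 was -0.16. It was followed by chr4:146063669-146065201 in the KRAB zinc finger run, -1.12 ± 0.70 over 7 probes, with an input of 19.6 units in control and 70.6 in shRNA8 cells and an IP of 15.4 and 16.02. At its brightest input probe the input was 110.4 units in control and 239.5 in shRNA8 cells at day +2 and 90.0 and 176.1 at day -2. The same run held chr4:147016118-147017560 (-1.05 ± 0.51), chr4:146926098-146927491 (-1.04 ± 0.59) and chr4:146505150-146506536 (-0.99 ± 0.46), so that 4 of the 8 regions named for a decrease belonged to it. Their day -2 differences were -0.69, -0.68 and -0.61. Outside the run, chr11:31724573-31725836 had -1.09 ± 0.73, with 8.09 units of input in control and 29.5 in shRNA8 cells, and -0.62 at day -2. With no input filter its difference was -0.34. The region chr13:102001002-102002389 had nearly equal differences at both days, -0.98 ± 0.50 at day +2 and -0.99 at day -2. The region chr19:11903231-11904714 had -0.97 ± 0.77 at day +2 and 0.51 at day -2. With no background subtraction the 8 decreases were -0.67 to -0.16, and the 4 of the KRAB zinc finger run were -0.67 to -0.59.

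**Figure D5:**
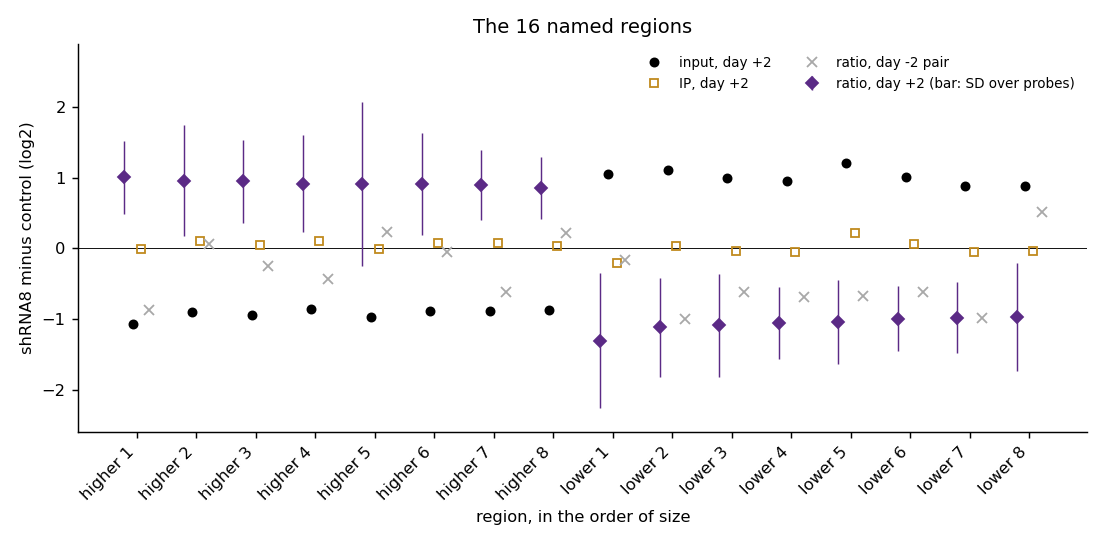
Ratio difference with the SD over probes, input and IP difference at day +2, and ratio difference at day -2 (log2, shRNA8 minus control) for the 8 regions named for an increase and the 8 named for a decrease, in order of size. The input lies opposite the ratio in all 16, and the IP lies between -0.21, at the largest decrease, and 0.22, at chr4:146926098-146927491; the day -2 ratio is below -0.6 in 6 of the 8 decreases and above 0.25 in 0 of the 8 increases.

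In the IP alone, 64 regions were higher and 23 lower by at least 0.2 with 75% of their probes on that side, and 9 and 3 by at least 0.3. Of the regions of at least 5 probes all on 1 side, the largest increase was at chrX:144755598-144757053, 0.30 ± 0.31, in the chromosome X window above, with an IP of 8.33 units in control and 10.1 in shRNA8 cells. Its mean was carried by 2 dim probes with differences of 0.77 and 0.48, whose IP was 2.98 to 7.06 units on these arrays, and its median probe had 0.11. At day -2 the mean was -0.14, and the leading probe had -0.94. At chr9:107537215-107538582 the increase was 0.24 ± 0.12, and the median IP was 113.9 units in control and 171.9 in shRNA8 cells at day +2 and 150.9 and 186.8 at day -2, where the mean difference was 0.020. Its brightest probe had 1029 units in control and 1545 in shRNA8 cells at day +2, and 1194 and 1468 at day -2, so that the control array at day +2 was the lowest of the 4. At chr11:3763627-3764696 all 5 probes were higher by 0.14 to 0.39, with a mean of 0.24 ± 0.094, and the IP was 27.3 units in control and 39.7 in shRNA8 cells, against 28.4 and 33.7 at day -2, with a mean of -0.047. Among regions of at least 5 probes all on 1 side, the largest decreases in the IP were at chr17:37288425-37289980 (-0.52 ± 0.88) and chr10:117993084-117994828 (-0.26 ± 0.18). The first rested on 1 probe, given with the other observations. The median IP of the second was 42.7 units in control and 47.8 in shRNA8 cells, 1.12-fold, which is less than the 1.14-fold of all kept probes. Both medians were those of the probe starting at 117993372, the only probe of the region that rose in units. The others fell from control to shRNA8 cells, from 49.4 to 47.8, 4.66 to 3.56, 61.2 to 57.5 and 32.7 to 31.0 units. The largest of the named decreases in the ratio, chr4:73328609-73329827, was also among the 5 named decreases in the IP (-0.21). Its IP difference at day -2 was -0.14.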

How the data were processed

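Image analysis by the authors used Agilent Feature Extraction 11.0.1.1 and mm9, per the file headers. The deposited values are, for each spot, the intensity in each channel, raw, background-subtracted and processed (dye-normalized), and a log10 ratio of the processed intensities. The submitters' processing notes name limma without its use. Per the labels' protocols 1 µg of DNA was labelled per sample. 1 input label (shRNA8, day +2) calls these cells uninduced while naming that day, and the day was followed. Deposited flags (other values, 0 or 1) selected probes above background.

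Log2 ratios of the processed intensities were centred, grouped into regions and called as described, and each channel likewise. Signals above background are medians of the background-subtracted intensity over a region's probes. Members, thresholds, gene lists and windows were chosen with earlier results of these data known. Named regions were the 8 largest each way by the ratio and the 5 by the IP among regions of at least 5 probes all on 1 side, and windows the 6 lowest and highest; windows with 6 or more lower regions, the ends of runs, probe layouts and clusters were added after the values were seen. Alternatives were other normalization, filters, background, size rules and region definitions, and, chosen after seeing the data, the brighter 50% of the probes and leaving out the strongest windows. The working of the call was checked on probe differences shuffled over the genome, with known differences added to some regions. Shuffling removes the tie to dim input and any likeness of neighbouring probes, so the check says nothing about the calls reported here. Python 3.11.15, numpy 2.4.6, pandas 2.3.3, R 4.3.3 and limma 3.58.1 (loess) were used.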

Additional observations from a re-analysis of the deposited data

Results flagged for a closer look

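In 3 of the named regions the day +2 and day -2 differences lay past 0.6 on opposite sides of 0. The difference between the days was not tested, since each group has 1 array. At chr11:61080135-61081518 the ratio difference was 1.01 at day +2 and -0.88 at day -2, with every probe above 0 at day +2 and below 0 at day -2. Its median input was 8.43 units in control and 4.91 in shRNA8 cells at day +2, and 2.88 and 8.202 at day -2. Over its probes the day -2 input ran from 1.48 to 6.44 units in control and from 0.73 to 20.1 in shRNA8 cells. Probes were kept by their day +2 input only. At chr9:7463010-7464527 the ratio difference was 0.90 at day +2 and -0.62 at day -2. At chr10:117993084-117994828 it was -0.68 at day +2 and 1.17 at day -2. In the last region the probe starting at 117994017 had an input of 59.4 units in control cells at day -2 and 2.44 to 5.69 units on the other 3 arrays.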

How the results depend on the processing

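No paired analysis was possible because each group has 1 array, and no replicate could be left out. Counts of called regions moved with the size rule, the background and how dim an input was allowed. With no background subtraction the log2 differences of dim probes shrink by construction. Given as higher and lower by the ratio (386 and 371 as reported) and then by the input (280 and 469), they were 5 and 12, 5 and 9 with no background subtraction; 28 and 64, 57 and 30 with the input well above background; 39 and 89, 80 and 34 with the brighter 50% of the probes; 218 and 266, 109 and 742 with no input filter; 129 and 162, 123 and 166 with at least 5 probes; 269 and 215, 159 and 327 with every probe on one side; 41 and 26, 24 and 45 at a size of at least 1; and 1262 and 970, 733 and 1614 at a size of at least 0.4. Quantile normalization gave 302 and 422, 378 and 309. Within-array loess, which exists for the ratio only, gave 803 and 641. By the IP alone 3 regions were higher and 1 lower at 0.4, and 1 was lower with a gap of 500 bp and 1 with the brighter 50% of the probes; every other setting gave 0. The cause was not tested beyond the construction of these settings.

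Of 238 ratio and input means of windows under alternatives 9 changed sign, and of 111 IP means 38 did, from between 0.0014 and 0.092 to between -0.079 and -0.00076, 15 of them with no background subtraction. No direction can be read from the IP mean of those windows. The chromosome X (144 to 146 Mb) and Mup windows stayed below 0 throughout, from -1.15 to -0.47 and from -0.87 to -0.22. The 9 ratio and input sign changes were, with no input filter, the input of the chromosome 10 window at 116 to 118 Mb (-0.070) and of the chromosome 11 window at 58 to 60 Mb (-0.12); with the input well above background, the ratio of the chromosome X window at 108 to 110 Mb (-0.037) and the input (-0.030) and ratio (0.0039) of the chromosome 11 window; its input with marked spots left out (-0.010) and with no background subtraction (-0.023); and with the brighter 50% of the probes the input (-0.14) and ratio (0.16) of the chromosome 7 window at 32 to 34 Mb. Of named regions 167 of 182 values stayed within the SD over probes. This count covers only the regions that were left under each setting. With the input well above background 1 of the 8 named increases in the ratio was left, chr18:20160099-20161790. Its difference there was 0.36, against 0.91 ± 1.17 as reported. Of the 8 named decreases 4 were left, all in the KRAB zinc finger run, at -1.10 to -0.85. With no background subtraction 16 of 26 values of named regions stayed within the SD over probes. Among those that did not, chr11:61080135-61081518 was 0.11, chr7:88638326-88639905 0.17 and chr8:123606449-123608661 0.15. Also outside it were chr11:31724573-31725836 at -0.27 (and -0.34 with no input filter) and chr19:11903231-11904714 at -0.16. The IP difference of chr14:4126040-4127318 became -0.0093.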

Other observations

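A single spot carried the largest decrease in the IP among regions of at least 5 probes all on 1 side. Over all regions the lowest mean IP difference was -1.05. The probe starting at chr17 position 37288827 had an input of 2781 units above background in control cells at day +2, against 12.0 in shRNA8 cells, 12.8 in control and 4.12 in shRNA8 cells at day -2. Its IP was 93.5 units in control cells at day +2 and 22.5 to 24.9 units on the other 3 arrays. The other 4 probes of that region had IP differences of -0.29 to -0.051 at day +2.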
